A study of Rattus norvegicus with 9 samples.

Results

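Rats whose middle cerebral artery had been occluded and reopened, and which then received salidroside, were compared with sham-operated rats. The comparison used 6 of the 9 arrays of the series, the 3 labelled as ischemic brain plus salidroside and the 3 labelled as sham brain. All animals were male Sprague Dawley rats, and the tissue is given as brain. The salidroside group underwent middle cerebral artery occlusion (MCAO) and reperfusion, and received 50 mg of salidroside per kg of body weight into the peritoneum once daily for 6 days, beginning 1 h after reperfusion. The other 3 arrays came from rats with the same occlusion that received saline on the same schedule, here called vehicle. They entered the fit and are quoted where they show what the treated brains were measured against. The labels say that ischemic brain was dissected, but not which region or side, how long the artery was closed, how old the rats were, or whether and when sham rats were injected. Labelled RNA was measured in 1 colour (Cy3) on Agilent rat arrays.

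MCAO is the standard rodent model of stroke: it starves the striatum and the overlying cortex of blood, and reperfusion is followed by neuronal loss, swelling of astrocytes, activation of microglia and entry of blood-borne immune cells. Salidroside is a phenylethanoid glycoside of Rhodiola roots, studied as a protective agent in brain ischemia. Immediate early genes such as Fos, Arc and the Egr family are transcribed within minutes of neuronal firing, without new protein synthesis, and are widely read as a sign of recent neuronal activity.

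Between 82.0% and 88.5% of probes were well above background on 8 of the 9 arrays, against 65.6% on sham array 3, which was scanned on a second day. Sham arrays 2 and 3 differed by no more than the noise of single spots. Over 10404 bright spots the SD of their log2 difference was 0.0933, and the 10 repeated spots that some probes have on each array gave 0.0922. The closest pair after them, salidroside arrays 2 and 3, had an SD of 0.297 where repeated spots gave 0.0774. Sham arrays 2 and 3 were therefore averaged and counted as 1 sample, which left 2 sham, 3 vehicle and 3 salidroside samples. P-values measure only the spread between these samples. The labels name no slide, and arrays that share a scan identifier in the file headers are here taken as 1 slide. By that identifier no slide held both sham and MCAO arrays. Slide or scan and surgery therefore cannot be told apart in any comparison with sham. All 8 neuronal, 6 astrocyte and 6 oligodendrocyte markers were well above background on all 9 arrays. No marker of any of 13 cell types differed between salidroside and sham past the threshold, beside 0.152% of all features with a symbol. With so small a share called, this does not show that cell content was alike. Median marker changes ran from -0.24 for blood-borne macrophages to 1.49 for neutrophils, of whose 4 tested markers 1 was well above background on all 9 arrays. Summed choroid plexus markers stood at 86.3 times the array's 75th percentile on salidroside array 3, against 0.53 to 0.84 on the other salidroside and all sham arrays. Ttr, the transthyretin gene of choroid plexus, stood at -3.46, -3.03 and 6.42 on the salidroside arrays, and its change of 1.68 had an SE of 3.43.

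**Figure D1:**
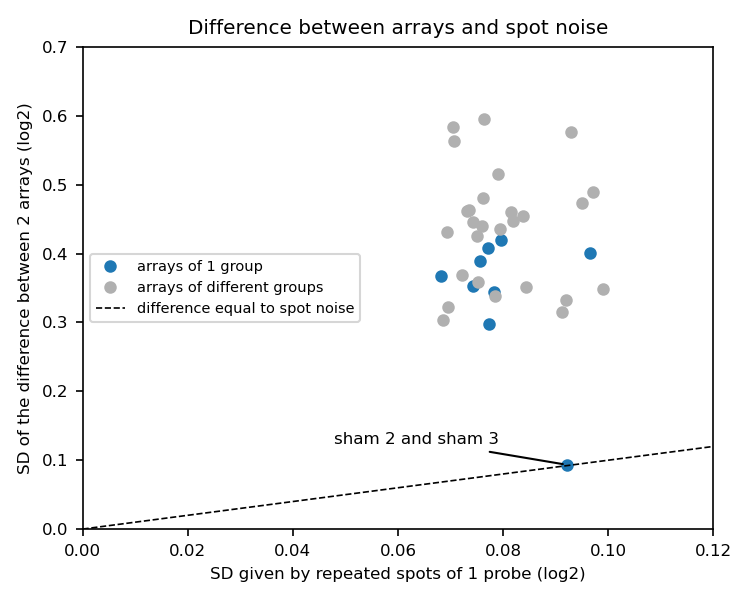
Each point is 1 pair of the 9 arrays. The vertical axis is the SD of the log2 difference between the arrays over bright spots, and the horizontal axis is the SD that repeated spots of 1 probe give. The dashed line marks equality: sham 2 and sham 3 lie on it at 0.0933 and 0.0922, and every other pair lies at 0.297 or above on the vertical axis.

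After treatment, 122 of 22474 features (0.543%) still differed from sham at a Benjamini-Hochberg adjusted p under 0.05 in limma. A feature is a gene, or a transcript or probe without a gene symbol. The differences ran mostly downward: 101 features (0.449%) were lower and 21 (0.0934%) were higher in the treated ischemic brain. Changes are on the log2 scale of the processed signal after subtracting each array's 75th percentile, so a change of 1 is a doubling. Called features had sizes from 0.99 to 3.33, with a median of 1.55. An unadjusted p under 0.05 was reached by 2934 features. Vehicle minus sham, which shares the sham arrays, gave 145 calls (0.645%), 32 higher (0.142%) and 113 lower (0.503%). The salidroside and sham arrays did not overlap for 4577 of 22421 features with a value on every array (20.4%), the called ones among them. The median change of all features was 0.14, and 66.4% of them were positive, so the downward majority of the calls did not follow the direction of the bulk of the features. In this tissue RNA, fewer cells of a type and less RNA per cell cannot be told apart.

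The number of calls depended on how samples were counted, scaled and left out. Taking all 9 arrays as separate samples gave 287 calls, 67 higher and 220 lower, and 117 of the 122 were among them. Scaling to each array's median instead gave 325 calls of which 52.9% were higher, and quantile normalization gave 219 of which 32.4% were higher, against 17.2% with the 75th percentile. With slide as a random block and sham array 3 left out, there were 52 calls, 50 of them lower. As no slide held both sham and MCAO arrays, this block cannot take a slide difference out of the comparison. No feature was called without sham array 1, without salidroside array 2, without salidroside array 3, or in a fit of the 6 arrays alone. In those limma fits 1650, 1884, 1808 and 2699 features had an unadjusted p under 0.05. The fit without sham array 1 holds 1 sham sample, which is assumed to vary like the other groups. Without salidroside array 1 the count rose to 916, of which 766 were higher. Without vehicle array 1, 2 or 3, which bear on the estimate of spread alone, it was 44, 65 or 42, and without sham array 2 it was 205.

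**Figure D2:**
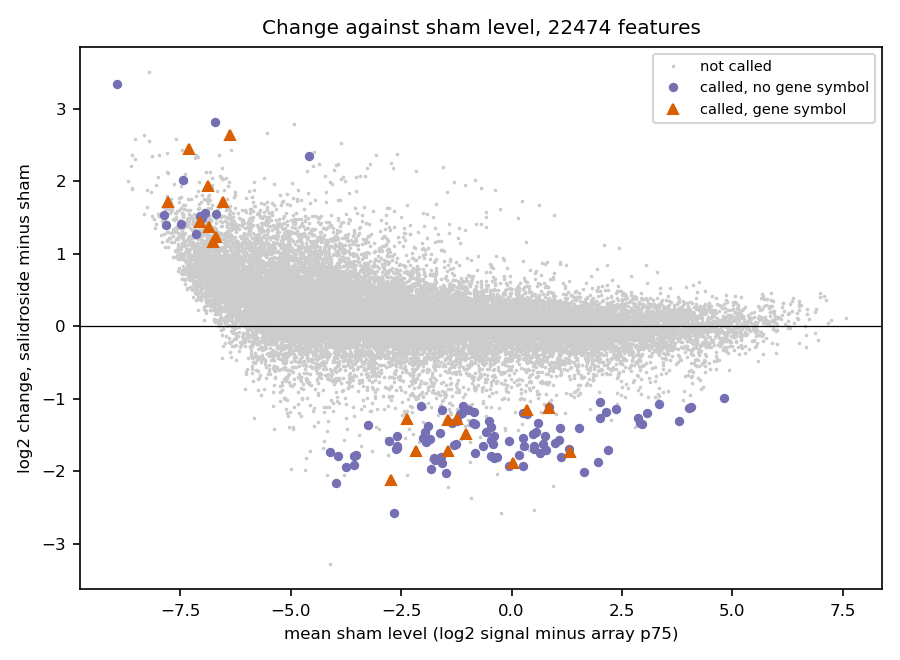
Each point is 1 of 22474 features, with the mean sham level on the horizontal axis and the log2 change, salidroside minus sham, on the vertical axis. Called features without a gene symbol are purple circles and those with one are orange triangles. Called falls have a median sham level of -0.48 and called rises of -7.01.

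Of the 122 called features, 20 have a gene symbol, which is 0.152% of the 13120 tested features with one. These 20 genes comprise 11 falls (0.0838%) and 9 rises (0.0686%). The falls include a transcriptional inhibitor, a junctional catenin, a trafficking protein and an antiproliferative factor.

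Id3 encodes a helix-loop-helix protein that lacks a DNA-binding domain and holds E proteins away from DNA. Its level was 0.15, -0.11 and -0.12 on sham arrays 1, 2 and 3, and -1.91, -1.92 and -1.77 on salidroside arrays 1, 2 and 3. The groups lay far apart, with each treated array well below the lowest sham array. Salidroside minus sham was -1.89 (SE 0.201, 95% interval -2.36 to -1.42, limma adjusted p = 0.0145), a 3.71-fold difference. Vehicle arrays stood at -1.63, -2.02 and -1.55, and salidroside minus vehicle was -0.13 (95% interval -0.55 to 0.29). Id3 was the only called gene among the 14 measured members of a list of Id proteins and bone morphogenetic protein feedback genes, whose median change was -0.01. Its relatives did not pass the test: Id1 changed by 0.13 (adjusted p = 0.84) and Id2 by -0.93 (adjusted p = 0.634), with Id2 lowest on salidroside array 2 at -0.48.

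Arvcf encodes an armadillo-repeat catenin of the p120 family that binds classical cadherins. It had the largest fall among named genes, with levels of -2.51, -2.83 and -3.07 on the sham arrays and -4.58, -4.88 and -5.09 on the salidroside arrays. The lowest sham array was well above the highest treated one. Salidroside minus sham was -2.12 (SE 0.231, adjusted p = 0.0149), a 4.35-fold difference, and salidroside minus vehicle was -0.03.

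Snx15 encodes a sorting nexin of the endosomal pathway. Its sham levels were -1.35, -1.48 and -1.62 and its salidroside levels -3.16, -3.11 and -3.27, again without overlap. The change was -1.73 (SE 0.192, adjusted p = 0.0149), a 3.31-fold difference, and salidroside minus vehicle was 0.17.

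Tob1 encodes an antiproliferative protein that recruits the deadenylation machinery to messenger RNAs. It stood at 0.98, 0.71 and 0.69 in sham and at -0.28, -0.18 and -0.42 under salidroside, with vehicle at -0.55, -0.49 and -0.58. The treated arrays lay between the sham and the vehicle arrays without overlapping either. Salidroside minus sham was -1.13 (SE 0.17, adjusted p = 0.0428), a 2.19-fold difference, while salidroside minus vehicle, 0.25, was not called.

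Tbca, a cofactor that holds beta-tubulin during folding, stood at -0.78, -1.25 and -1.31 in sham and at -2.31, -2.60 and -2.66 under salidroside. Its change was -1.49 (SE 0.213, adjusted p = 0.0389), a 2.82-fold difference. Dolpp1, a phosphatase that recycles the dolichol carrier of protein glycosylation, stood at -1.90, -2.36 and -2.46 in sham and at -3.69, -3.90 and -4.04 under salidroside. Its change was -1.72 (SE 0.235, adjusted p = 0.034). Neither gene's groups overlapped.

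Of the remaining falls, Whamm, an activator of branched actin on membranes, changed by -1.30 and Arl6ip6, a small membrane protein, by -1.28. Dbr1, which debranches intron lariats, changed by -1.28 on the probe kept, while its other tested probe changed by 0.49, so the array does not give the gene 1 direction. Rchy1, a RING-type ubiquitin ligase, changed by -1.15. These 4 had adjusted p-values of 0.0443 to 0.0477. Gapdh-ps1, annotated as a processed pseudogene of Gapdh, changed by -1.74 (adjusted p = 0.0196). Its probe may also bind transcripts of Gapdh itself, whose own change was 0.30 (adjusted p = 0.717).

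**Figure D3:**
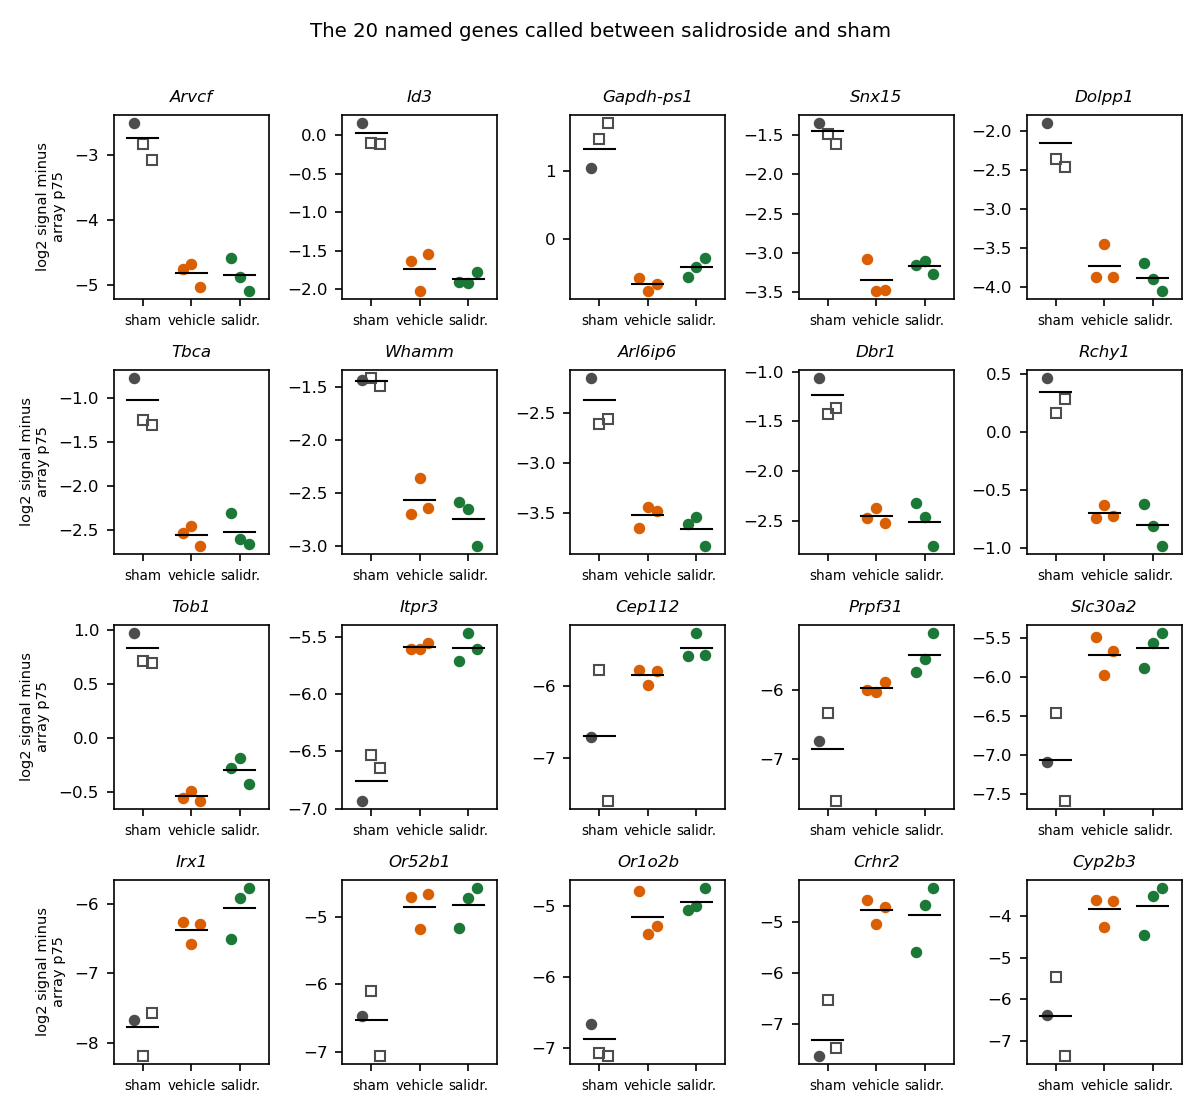
Levels of the 20 called genes with a symbol on each of the 9 arrays, as log2 signal minus the array's 75th percentile. Filled circles are arrays counted as separate samples, open squares are sham arrays 2 and 3, and black lines are group means with those squares counted as 1 sample. In every panel the salidroside points lie apart from the sham points, for Id3 at -1.91, -1.92 and -1.77 against 0.15, -0.11 and -0.12.

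The other 102 called features, 83.6% of the calls, have no gene symbol, and they make up 1.09% of the 9354 tested features without one. Among them are 90 of the 101 falls and 12 of the 21 rises. By the accession the array gives, 68 carry a probe name alone, 19 an Ensembl transcript, 12 a predicted RefSeq transcript, 2 a RefSeq transcript without a match in the naming table and 1 another kind. Probe names starting with A_64 made up 80.2% of the 101 falls, 57.1% of the 21 rises and 58.6% of tested features, a grouping noticed after the values were seen. Probe A_64_P030494, which has the smallest unadjusted p-value of the comparison and shares its adjusted value with other features, stood at 1.62, 1.63 and 1.71 in sham and at -0.46, -0.32 and -0.33 under salidroside. Its change was -2.01 (SE 0.154, adjusted p = 0.0125), and the vehicle arrays, at -0.13, -0.07 and -0.20, lay just above the treated ones.

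The falls were measured on bright probes. All 101 were well above background on all 3 sham arrays, against 79.6% of tested features. Their median level was -0.48 in sham and -2.06 under salidroside. They were also tight within groups: the median SD was 0.115 in sham and 0.115 under salidroside, against 0.253 and 0.268 over all tested features, and a small spread is part of what makes a feature pass the test. Salidroside minus vehicle ranged from -0.61 to 0.45 over them, with a median of -0.07 and a lowest adjusted p of 0.952. Vehicle minus sham, which shares the sham arrays, had a median of -1.51 for the same features beside the -1.56 under salidroside.

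The rises were of another kind. The 9 named genes that rose were all measured near the lower limit of the array. None was well above background on all 3 sham arrays: 6 were on 2 of them, 2 on 1 and 1 on none. Of all 21 rises, 20 entered the test through the salidroside arrays alone, the group in which they were high, so their fitted changes are set against sham values partly at background. Over these 21 the sham level had a median of -7.01 and the salidroside level -5.48. Sham arrays 2 and 3, averaged in the fit, differed by a median of 0.94 for these features, against 0.12 over all tested features and 0.07 over the falls, so the averaging hides spread here.

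Crhr2 encodes the type 2 receptor for corticotropin-releasing factor and the urocortins. It stood at -7.62, -6.53 and -7.46 in sham, where 1 array was well above background, and at -5.59, -4.67 and -4.33 under salidroside. The fitted change was 2.44 (adjusted p = 0.0499), against a sham level mostly not well above background. Salidroside array 1 lay below -5.29, the lowest detected signal of sham array 3, so that sham array does not separate the groups. Vehicle arrays stood at -4.56, -5.04 and -4.70, and salidroside minus vehicle was -0.10.

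Cyp2b3 encodes a cytochrome P450 of the 2B subfamily. Its sham levels were -6.37, -5.45 and -7.35, with 2 arrays well above background, and its salidroside levels -4.44, -3.52 and -3.32. The probe entered the test through the salidroside arrays alone. The change was 2.63 (SE 0.36, adjusted p = 0.034). A second probe of Cyp2b3 gave 0.45, so the size rests on the probe kept.

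Itpr3 encodes an endoplasmic reticulum calcium channel opened by inositol trisphosphate. It stood at -6.93, -6.53 and -6.64 in sham and at -5.71, -5.47 and -5.61 under salidroside. The change was 1.16 (SE 0.176, adjusted p = 0.0433), the smallest of the called rises. Irx1, a homeobox transcription factor, was not well above background on any sham array. Against sham levels raised to each array's lowest detected signal, its treated mean was 1.60-fold higher (fitted change 1.71, adjusted p = 0.0423). On sham array 3 that limit was -5.29, above all treated Irx1 levels of -6.51, -5.92 and -5.77, so that array bounds no rise. Cep112, a centrosomal protein, changed by 1.23, Prpf31, a splicing factor of the tri-snRNP, by 1.37, and Slc30a2, a vesicular zinc transporter, by 1.43, with adjusted p-values of 0.0389, 0.0436 and 0.0423. The limit of -5.29 on sham array 3 also lay above all treated levels of Itpr3 and of Slc30a2 (-5.88, -5.57 and -5.44). It lay within the treated levels of Prpf31 (-5.74, -5.54 and -5.17) and Cep112 (-5.57, -5.26 and -5.56). For Itpr3 and Slc30a2 that array thus bounds no rise either. Or52b1 and Or1o2b, both olfactory receptors, changed by 1.71 and 1.94. They are 2 of 583 olfactory receptor genes tested (0.343%), a family looked at only after their values were seen, and the family's median change was 0.58. Neither was well above background on all sham arrays, while 335 of the family were.

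Among the lists whose medians lay below sham in vehicle arrays and not in treated ones were the immediate early genes, the genes of cholesterol synthesis and those of erythrocytes. Under salidroside none of 24 measured members differed from sham past the threshold. Their median change was 0.25, beside 0.14 over all features, and 17 were positive. Vehicle minus sham, measured against the same sham arrays, had a median of -0.77 with 3 members lower. Salidroside minus vehicle had a median of 1.02, but no feature in that comparison was called (0% of 22474; 1106 features with an unadjusted p under 0.05 in limma, and 3 calls with 9 samples, 8 with median scaling, 4 with trended robust moderation and 1 each with quantile normalization, the authors' deposited table and vehicle array 1 left out).

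The promoters of Egr2 and Egr4, the members with the lowest vehicle minus sham values, are shown because both carry elements known from activity-dependent transcription. The sequences are the 250 bases before each transcription start, 5′ to 3′ on the gene's strand, from RefSeq on the rat assembly GRCr8, at chr20:21054442-21054691 (minus strand) for Egr2 and chr4:119607818-119608067 (minus strand) for Egr4. Capitals mark a CArG box, the serum response factor motif, and CRE cores (TGACG or CGTCA on the strand shown, so that both strands are searched).
Egr2: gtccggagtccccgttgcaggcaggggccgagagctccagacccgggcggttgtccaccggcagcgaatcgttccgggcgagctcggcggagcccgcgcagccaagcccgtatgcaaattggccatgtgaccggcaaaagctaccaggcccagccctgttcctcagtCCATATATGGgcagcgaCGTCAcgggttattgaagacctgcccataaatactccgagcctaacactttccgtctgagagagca
Egr4: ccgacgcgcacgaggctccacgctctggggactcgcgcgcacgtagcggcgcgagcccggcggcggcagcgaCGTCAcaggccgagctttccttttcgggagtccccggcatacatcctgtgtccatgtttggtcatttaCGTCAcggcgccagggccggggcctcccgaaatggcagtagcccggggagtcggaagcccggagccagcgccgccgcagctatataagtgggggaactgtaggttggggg
Egr2 holds 1 CArG box and 1 CRE core, and Egr4 holds 2 CRE cores and no CArG box. Of 33469 promoters of that length, 18.2% hold a CRE core and 1.5% a CArG box. Of the 19 promoters found for the 25 immediate early genes in the list, 10 hold a CRE core and 2 a CArG box. A match describes letters in this window and not a bound site.

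Egr2, a zinc finger factor known for myelination as well as for activity-dependent transcription, stood at 0.58, 0.04 and -0.04 in sham and at 0.74, 0.95 and 0.81 under salidroside. Vehicle arrays stood at -1.97, -3.19 and -3.86. Each treated array was above the highest sham array, while each vehicle array was far below the lowest. Salidroside minus sham was 0.54 (SE 0.492, 95% interval -0.60 to 1.69, adjusted p = 0.715). Vehicle minus sham was -3.30 (adjusted p = 0.0404), and salidroside minus vehicle was 3.84 (adjusted p = 0.135).

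Egr4, a brain-enriched member of the same family, stood at 3.27, 3.43 and 3.47 in sham, at 3.52, 3.32 and 3.23 under salidroside, and at 1.24, 0.36 and -0.99 in vehicle. The sham and treated arrays interleaved. Salidroside minus sham was -0.01 (SE 0.549, 95% interval -1.28 to 1.27, adjusted p = 0.997). Its sign turned under quantile normalization, in the authors' deposited table and when single arrays were left out, with turned values from 0.0027 to 0.055.

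Arc, whose product drives the internalization of AMPA receptors at synapses, stood at 2.97, 3.97 and 4.08 in sham, 3.47, 4.0 and 4.09 under salidroside and 1.29, 0.27 and -0.22 in vehicle. Sham and treated arrays overlapped, and the change was 0.36 (SE 0.485, 95% interval -0.77 to 1.48, adjusted p = 0.815). It was -0.17 without sham array 1. Vehicle minus sham was -3.05 (adjusted p = 0.0473).

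Nr4a1, an orphan nuclear receptor of the immediate early class, stood at 2.71, 3.17 and 3.20 in sham, 2.58, 3.49 and 3.27 under salidroside and 1.21, 0.53 and 0.38 in vehicle. Its change from sham was 0.17 (95% interval -0.65 to 0.99, adjusted p = 0.885), with the groups overlapping, and its vehicle minus sham value was -2.24 (adjusted p = 0.0465). Leaving out sham array 1 made the change -0.07, and leaving out salidroside array 2 made it -0.02.

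Fos, which pairs with Jun in the AP-1 factor, spread more widely under treatment, at -0.19, 1.33 and 0.52 against 0.29, 0.27 and 0.26 in sham. The change was 0.27 (adjusted p = 0.829), and -0.11 without salidroside array 2. Egr1, which binds the same motif as its relatives, stood at -2.16, -1.55 and -1.69 in sham and at -1.79, -1.23 and -1.10 under salidroside, a change of 0.52 (adjusted p = 0.539). Egr3 had the largest change of the list, 0.96 (adjusted p = 0.219). A missed threshold does not show that treated and sham levels are alike.

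**Figure D4:**
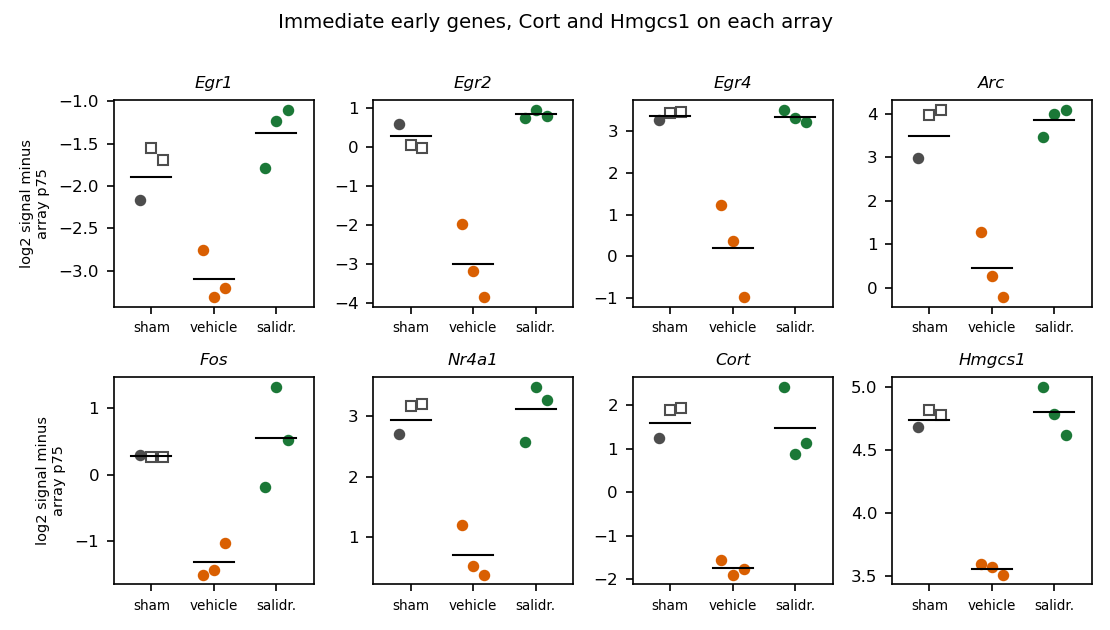
Levels of 6 immediate early genes, Cort and Hmgcs1 on each of the 9 arrays, as log2 signal minus the array's 75th percentile. Symbols are as in the plot of the 20 called genes. Vehicle points lie below sham in all 8 panels and salidroside points lie near sham, for Egr4 at 3.52, 3.32 and 3.23 against 3.27, 3.43 and 3.47.

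Cort, which encodes the interneuron peptide cortistatin, stood at 1.25, 1.88 and 1.94 in sham, 2.42, 0.87 and 1.13 under salidroside and -1.56, -1.89 and -1.76 in vehicle. Treated arrays fell on both sides of sham, and the change was -0.10 (95% interval -1.15 to 0.94, adjusted p = 0.944), turning to 0.20 without salidroside array 2 and to 0.07 without salidroside array 3. Vehicle minus sham was -3.31 (adjusted p = 0.0324). Sst, the related peptide somatostatin, changed by -0.48 (adjusted p = 0.572). The 20 interneuron and GABA genes had a median change of -0.07, the 25 measured genes of the glutamatergic synapse -0.07 and 13 pan-neuronal markers -0.03, with no call in any of these lists. Thy1, a surface glycoprotein of neurons, changed by -0.77 (adjusted p = 0.221), with all treated arrays below sham.

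Genes of cholesterol synthesis also stood near sham under treatment. The 21 genes had a median change of 0.04, with 11 positive and none called, beside a median of -0.82 with 2 called lower for vehicle minus sham. Scaling to array medians made the list's median -0.09. Hmgcs1, the synthase that makes the precursor of mevalonate, stood at 4.68, 4.82 and 4.78 in sham, 5.00, 4.78 and 4.61 under salidroside and 3.59, 3.57 and 3.51 in vehicle. Sham and treated arrays overlapped, and the change was 0.06 (SE 0.175, 95% interval -0.34 to 0.47, adjusted p = 0.913). It was -0.08 under median scaling.

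The 6 measured erythrocyte genes, which come with blood left in the tissue, had a median of 0.32 for salidroside minus sham with all positive, beside -1.04 for vehicle minus sham with 0 positive. Their median for salidroside minus vehicle was 1.21, and none was called between salidroside and sham. The summed erythrocyte markers stood at 90.9, 64.1 and 113 times the 75th percentile on salidroside arrays 1, 2 and 3, at 63.9, 91.5 and 98.7 on sham arrays 1, 2 and 3, and at 29.7 to 38.2 on the vehicle arrays. Hbb-b1, a beta-globin gene, changed by 0.39 (adjusted p = 0.674). The part of blood content in the other values was not tested.

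Genes of striatal neurons had the lowest median of all 42 lists, and that value rested on 1 sham array. The 14 measured genes had a median change of -0.84, with 2 positive and none called, and -0.05 without sham array 1. Penk, which encodes the enkephalin precursor, stood at 3.47, 0.97 and 1.04 in sham and at 1.09, 1.03 and 0.72 under salidroside. Sham array 1 was high while sham arrays 2 and 3 lay among the treated ones. Pdyn, the dynorphin precursor, was also highest on sham array 1, at 2.57, 1.04 and 0.94 against 0.94, 0.58 and 0.42, with sham arrays 2 and 3 above the treated ones. Adora2a, the adenosine receptor of indirect-pathway neurons, was likewise highest on sham array 1, at 0.77, -3.02 and -3.10 against -2.36, -2.80 and -2.94. Its sham arrays 2 and 3 lay below the treated ones, and its change of -1.55 became 0.36 without sham array 1. Ppp1r1b, which encodes DARPP-32, changed by -0.80, also with sham array 1 highest. The summed oligodendrocyte markers differed between the same arrays, at 72.1 times the 75th percentile on sham array 1 against 157 and 159 on sham arrays 2 and 3. The part of dissected tissue composition in these values was not tested.

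No list of glial, immune or vascular genes had a member past the threshold, although most of their medians lay above the 0.14 of all features. The 17 reactive astrocyte genes had a median change of 0.41 with 16 positive, beside 1.52 for vehicle minus sham. The 18 complement genes had a median of 0.48 with 17 positive, beside 1.17, and the 14 microglial markers 0.44 with 12 positive, beside 0.74. Per array, the complement median relative to the sham mean was 0.15, 0.23 and 0.92 on salidroside arrays 1, 2 and 3, the reactive astrocyte median 0.13, 0.18 and 0.87 and the microglial median 0.09, 0.24 and 1.05. Salidroside array 3 was the highest in each, and it is also the treated array with high choroid plexus markers. Vehicle array 3, whose summed choroid plexus markers stood at 87.4, was likewise the highest vehicle array in these lists, at 1.76, 2.03 and 1.38, and vehicle array 1 had them at 20. The part of that tissue in the glial and immune values was not tested.

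Gfap, the intermediate filament of astrocytes, stood at -3.87, -2.44 and -1.72 under salidroside and at -4.02, -3.09 and -3.15 in sham. Treated array 1 lay within the sham range and the other treated arrays above it, giving a change of 0.90 (SE 0.623, adjusted p = 0.632). C1qc, a chain of the first complement component, stood at -1.31, -0.63 and 0.12 against -1.38, -1.29 and -1.31, a change of 0.73 (adjusted p = 0.566) beside 2.00 for vehicle minus sham. Timp1, an inhibitor of matrix metalloproteinases, changed by 0.72 (adjusted p = 0.612), beside 2.14. Mt1, a metal-binding metallothionein, changed by 0.42 (adjusted p = 0.734), beside 2.37 for vehicle minus sham (adjusted p = 0.0593).

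Lists of blood-borne immune cells and of antigen presentation had medians close to one another in both comparisons with sham, though the members of a list could still differ. The 8 neutrophil genes had a median of 0.58 with all positive, beside 0.59 for vehicle minus sham. The 10 macrophage genes had 0.57 with 6 positive, beside 0.68 with 10 positive for vehicle minus sham. Gene by gene, salidroside minus vehicle had a median of -0.93 over the macrophage genes, with 8 negative and 2 positive. Over the neutrophil genes it was -0.19, with 5 negative and 3 positive, and no gene of either list was called. The 27 antigen presentation and interferon genes had a median of 0.59 with 21 positive for salidroside minus sham, beside 0.44 for vehicle minus sham, and per array -0.03, 0.58 and 1.22. Tap1, a subunit of the peptide transporter of class I presentation, changed by 0.94 (adjusted p = 0.27). The 9 lymphocyte genes had a median of 0.49, all positive, beside 0.35. Among single genes, Cd79b, a chain of the B cell receptor complex, changed by 1.44 (adjusted p = 0.102) and Ccl4, a chemokine of macrophages and T cells, by 1.43 (adjusted p = 0.121). Both probes were dim, and neither gene had a probe well above background on all 6 arrays. The treated arrays lay above all sham arrays for each, but salidroside and sham arrays did not overlap for 20.4% of all features. Spp1, the secreted phosphoprotein osteopontin, spread most, at -4.60, -1.02 and -1.27 against -2.74, -6.06 and -6.48, and its change of 2.21 had an SE of 1.49.

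Among metabolic and stress lists, the 21 respiratory chain subunits had a median of -0.04 and a range from -0.23 to 0.21. The medians were 0.08 over 22 hypoxia and glycolysis genes, 0.09 over 14 heat shock proteins, and 0.18 over 24 Nrf2 targets and metallothioneins. The 16 ketone body and PPAR target genes stood higher, with a median of 0.41 and 14 positive. Of these genes 3 had an unadjusted p under 0.05 in limma, beside 2934 of all 22474 features, and none was called. Among the Nrf2 targets, Gclm, the modifier subunit of glutathione synthesis, was low. It stood at -5.45, -6.94 and -7.04 under salidroside against -4.21, -5.05 and -5.17 in sham. On salidroside array 3 it lay below that array's lowest detected signal, -6.67. The probe thus entered the test through the sham arrays alone, the group in which it was high. The Gclm change of -1.82, set against a treated level partly at background, was not called (adjusted p = 0.168). Hmox1, the inducible heme oxygenase, changed by 0.80 (adjusted p = 0.561). Among 22 cell cycle genes, with a median of 0.28, Atad2, a chromatin ATPase of dividing cells, changed by -1.73 (adjusted p = 0.179). The 19 endothelial and barrier genes had a median of 0.20. Slc2a1, the glucose transporter of brain endothelium, changed by 0.70 (adjusted p = 0.206), at 1.39, 1.33 and 1.39 against 0.47, 0.89 and 0.86, and Abcb1a, an efflux pump of the barrier, by -1.01 (adjusted p = 0.155). The treated arrays of both genes lay outside the sham range, as did those of 20.4% of all features.

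Across the 42 lists, 651 of 743 genes were measured, and Id3 was the only one called (0.154%, beside 0.543% of all features and 0.152% of features with a symbol). An unadjusted p under 0.05 was reached by 52 of the 651, beside 2934 of all 22474 features, so by a smaller share of the list genes. Genes outside the threshold with the smallest adjusted p-values of their lists included Irs1, an adaptor of the insulin and IGF receptors, at 1.16 (adjusted p = 0.0785), and Zbtb16, a glucocorticoid-induced zinc finger factor, at 1.49 (adjusted p = 0.0986). Per1, a circadian clock gene that glucocorticoids also induce, changed by 1.12 (adjusted p = 0.187), at -3.88, -3.14 and -2.97 against -4.68, -4.04 and -4.41. The 13 glucocorticoid-induced genes had a median of 0.42 beside 0.91 for vehicle minus sham.

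**Figure D5:**
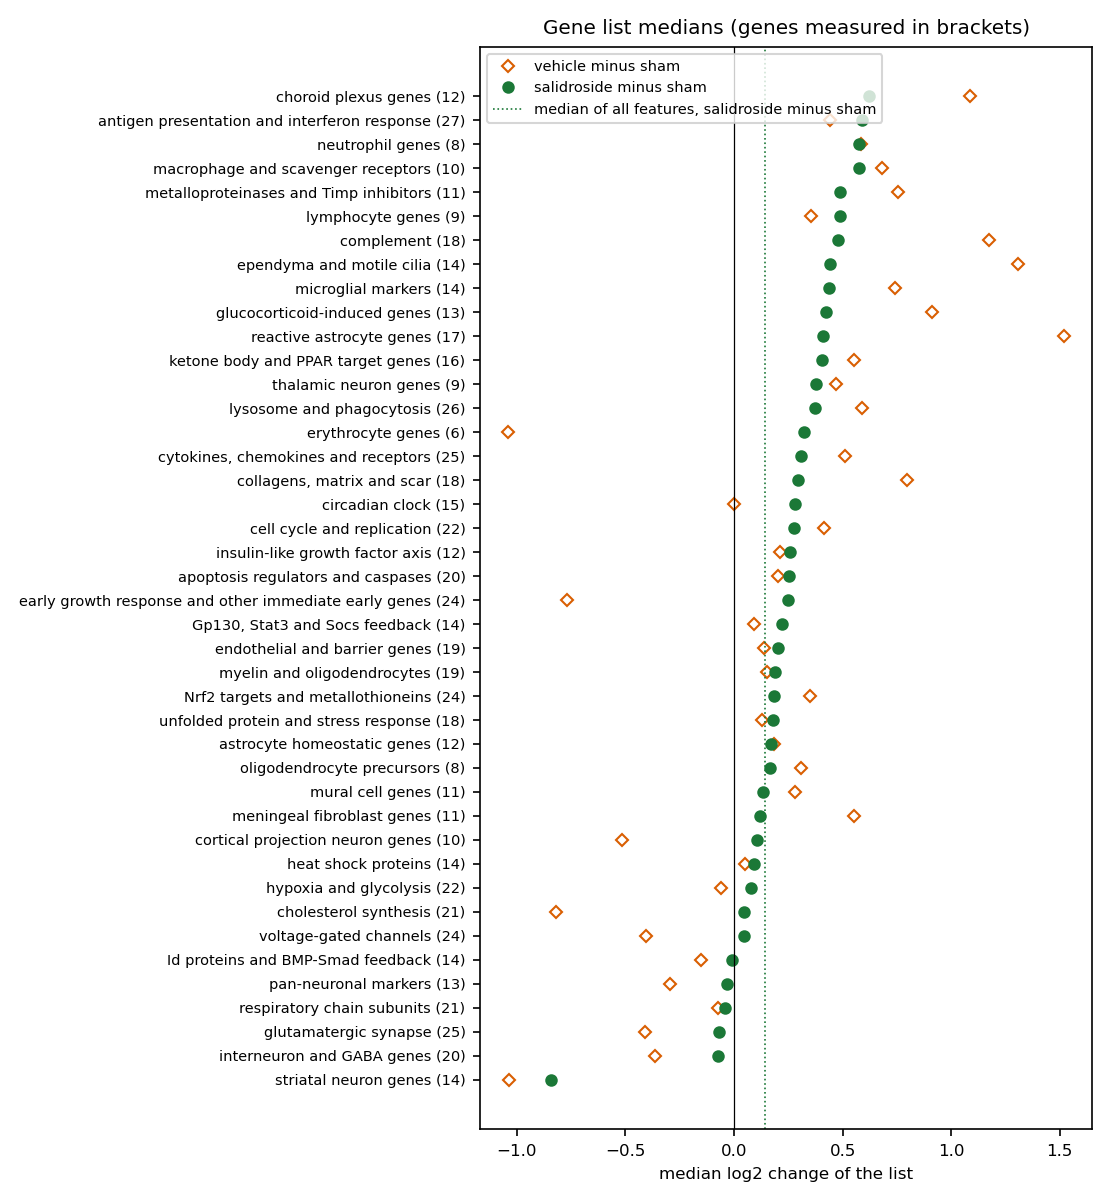
Median log2 change of each of 42 gene lists, with the number of measured genes in brackets. Filled circles are salidroside minus sham and open diamonds vehicle minus sham, which share the sham arrays, and the dotted line is the median of all features for salidroside minus sham, 0.14. Striatal genes lie lowest at -0.84, and immediate early genes lie at 0.25 for salidroside and -0.77 for vehicle.

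Genes called higher in vehicle than in sham stood at different distances from sham under treatment. Crisp3, a secreted cysteine-rich protein, stood at -5.40, -5.01 and -5.17 in sham, -5.11, -5.30 and -5.24 under salidroside and -3.18, -3.69 and -3.32 in vehicle. Treated arrays lay within the sham range, with a change of 0.02 (95% interval -0.46 to 0.51, adjusted p = 0.973) whose sign turned under median scaling (-0.11), quantile normalization (-0.34) and in the authors' deposited table (-0.33). Slc6a5, the neuronal glycine transporter, stood at -2.36, -2.49 and -2.37 in sham, -3.31, -2.82 and -2.95 under salidroside and -1.24, -0.95 and -1.14 in vehicle. Treated arrays lay below sham and vehicle arrays above it. The change was -0.63 (adjusted p = 0.221), with 0.34 on a second probe, and vehicle minus sham was 1.28 (adjusted p = 0.0447).

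Gpd1, the glycerol-3-phosphate dehydrogenase of oligodendrocytes and fat, stood at -0.10, 0.60 and 0.60 in sham, 0.91, 1.01 and 1.53 under salidroside and 2.04, 2.65 and 3.10 in vehicle. Itih3, a heavy chain of the inter-alpha-trypsin inhibitor that binds hyaluronan, stood at 0.58, 0.91 and 0.92, at 1.35, 2.09 and 1.36 and at 2.48, 3.02 and 2.88 in the same order. For both genes the treated arrays lay between the other groups without overlap. Their changes from sham were 0.90 (adjusted p = 0.346) and 0.85 (adjusted p = 0.248), beside 2.34 and 2.04 for vehicle minus sham, and neither differed past the threshold between salidroside and vehicle (-1.44 and -1.19). Mtarc1, a mitochondrial amidoxime-reducing enzyme, had 0.80 (adjusted p = 0.296) beside 1.95. Mab21l4, by contrast, stood close to vehicle, with a fitted change of 1.76 (adjusted p = 0.0624) beside 2.12 for vehicle minus sham. It was not well above background on any sham array. Against sham levels raised, where lower, to each array's lowest detected signal, its treated mean was 1.98-fold higher.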

How the data were processed

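Per the file headers, the authors made each array file with Agilent Feature Extraction 11.0.1.1, and the deposited signals are intensity on a linear scale, background-subtracted within each array. A value table deposited by the authors, on the log2 scale and with 19477 probes and a shared maximum of 17.91, served as an alternative. Its normalization is not given in the sources used here. It is not centred per gene, and columns correlated with the log2 signal of their own arrays with r from 0.99967 to 0.99998.

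Here, in R 4.3.3 with limma 3.58.1, the log2 processed signal was set relative to each array's 75th percentile over non-control spots. Outlier spots were dropped and spots of 1 probe averaged. Probes well above background, by the majority of their spots, on all arrays of the salidroside or the sham group were kept (25194). The probe with the highest mean signal stood for each name, giving 22474 features, 13120 of them with a symbol matched through transcript accessions to a RefSeq table of the assembly GRCr8. Of these features 4581 passed through the salidroside arrays alone and 73 through the sham arrays alone, and 53 lacked a value on at least 1 array. No spot was saturated.

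One limma model of 3 groups gave all contrasts, with Benjamini-Hochberg adjustment over all features. The analysis had first been planned with 9 samples; averaging sham arrays 2 and 3 left 8 samples and 5 residual degrees of freedom. A level at or below background is a bound: the treated mean was set against, per sham array, the higher of the lowest signal well above background and the probe's own.

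The text names the 10 largest called rises and falls with a symbol, the leading members of gene lists, genes called between vehicle and sham, and a fixed set (Egr1 to Egr4, Arc, Fos, Cort, Sst, Gfap, Hmox1, Mt1, Hmgcs1, Ttr, Cd163, Slc6a5, Crisp3), of which Cd163 was not tested. Members, lists and tests were chosen with earlier results of these data known. Alternatives changed the scaling, background correction, dim-probe filter, samples, blocks, probe rule and moderation. The fit was tested on simulated data with normal noise of each feature's spread. It recovered 18.2% of changes of log2 size 1, 58.2% of size 2 and 91.0% of size 3, with 6 false calls. Most changes of size 1 would thus be missed. Pairing by replicate number was checked by correlating deviations from group means, which gave 0.26, 0.26 and -0.08 for same-numbered salidroside and sham arrays. The numbers name different animals and were not used as pairs. Sample titles share a leading number between vehicle array 1 and salidroside array 3, vehicle 2 and salidroside 1, and vehicle 3 and salidroside 2. By correlation over features with a value on every array, this was in each case the vehicle array's closest salidroside array (r 0.985, 0.986 and 0.983). The SD of the log2 difference over bright spots gave the same for vehicle 1 (0.352) and vehicle 3 (0.432). By that SD vehicle 2 was closest to salidroside 2, at 0.369, against 0.461 with salidroside 1. The meaning of the leading number is not given, and salidroside minus vehicle comes from an unpaired fit. Genome positions of probes were not used here. Some genes are not reported here.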

Additional observations from a re-analysis of the deposited data

How the results depend on the processing

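Among 76 genes and 22 alternatives, 1342 of 1618 values kept their direction and side of the threshold, 230 were no longer called, 14 became called and 32 turned sign, none of the latter among the 20 called genes. The counts moved more. Called features (higher, lower) were 325 (172, 153) with median scaling, 219 (71, 148) with quantile normalization, 190 (21, 169) in the authors' deposited table, 54 (2, 52) without a filter on dim probes, 120 (2, 118) with probes above background on all 6 arrays, 117 (19, 98) with the mean of a gene's probes and 120 (7, 113) with trended robust moderation. Normexp, run on the median pixel signal, gave 0 (0, 0) in limma with 1167 features at an unadjusted p under 0.05, and the 6 arrays alone gave 0 (0, 0) with 2699. Normexp also moved the median change of all features to 0.52. Leaving out 1 array at a time gave 0 to 916 called, 0 to 766 higher and 0 to 150 lower. Alternatives chosen after seeing the data were 9 arrays as 9 samples, 287 (67, 220), and sham array 3 left out with a filter over the 5 arrays kept, 96 (1, 95). The slide block, 52 (2, 50), and the replicate block, 140 (9, 131), were run in forms chosen then too: the first with sham array 3 left out (within-slide correlation 0.196), the second with 9 samples. The replicate numbers do not pair these animals, so the block describes no pairing of the design.

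Signs turned as follows, all in uncalled genes. Egr4 became 0.014 with quantile normalization, 0.0066 in the deposited table, 0.019 with the slide block and 0.0027 with sham array 3 left out and the filter over 5 arrays. Hmgcs1 became -0.076 and Id1 -0.0078 with median scaling. Under normexp Gclm became 0.16, Atad2 0.25 and Slc6a5 0.048. Crisp3 became -0.11 with median scaling, -0.34 with quantile normalization, -0.33 in the deposited table, -0.026 with 9 samples and again -0.026 with the replicate block, -0.022 with the slide block and -0.013 with the filter over 5 arrays. Leaving out 1 array at a time gave ranges across 0 for 10 genes: -0.098 to 0.055 for Egr4, -0.17 to 0.55 for Arc, -0.11 to 0.64 for Fos, -0.069 to 0.43 for Nr4a1, -0.58 to 0.20 for Cort, -0.036 to 0.16 for Hmgcs1, -0.13 to 0.067 for Crisp3, -1.54 to 3.4 for Ttr, -0.14 to 0.35 for Gapdh and -1.72 to 0.36 for Adora2a. The cause of these turns was not tested. List medians moved by more than their spread in 69 of 924 cases. Signal over background limits the rises: 17 of the 20 called genes were testable over the 5 arrays and 11 over all 6.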
